A study of Caenorhabditis elegans with 4 samples.

Results

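The regions described here are the REC-8 peaks that lie wholly within the outer 2 Mb of the chromosome end assigned a meiotic pairing centre, on 5 of the chromosomes of Caenorhabditis elegans. These are the left ends of II, III and X, and the right ends of IV (from 15.49 Mb) and V (from 18.92 Mb). They were chosen by position alone, and 577 of the 7831 nuclear peaks of the series-wide list met the rule. The same windows held 216 of 2001 peaks of ChIP replicate 1 and 355 of 5347 peaks of ChIP replicate 2. All worms were hermaphrodites carrying fem-2(b245), an allele on III of the phosphatase gene fem-2, grown at 20 °C and labelled as young adults with a germline. The growth protocol speaks of gravid adults from synchronised cultures. The study held 2 samples of REC-8 ChIP and 2 of input DNA, with no further genotype or treatment. Chromatin came from whole worms, so nuclei of the soma were present beside those of the germline. Whether the replicates were separate cultures is not said in the labels.

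Meiotic chromosomes must find their homologous partner before they synapse and recombine. In C. elegans each chromosome does so with the help of a pairing centre, a region near 1 end that is rich in short repeated motifs. Zinc finger proteins bind these motifs: HIM-8 on X, ZIM-1 on II and III, ZIM-2 on V and ZIM-3 on I and IV. They attach the chromosome end to the nuclear envelope, where motor proteins move it. REC-8 is the meiotic kleisin of cohesin, the ring that links sister chromatids and helps to build the chromosome axis. The files map REC-8 and not the HIM-8 and ZIM proteins, so which end carries the pairing centre was taken as given. Since the assignment of IV was not checked here, its values are printed separately, and alternatives without IV and with its ends exchanged are given. No DNA sequence is shown, because no genome of the files' build (WormBase WS220) was used.

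The comparison asked whether the pairing-centre ends held more or fewer REC-8 peaks than the opposite ends of the same chromosomes. They did not hold more. In the series-wide list they carried 57.7 peaks per Mb in total against 77.7 at the opposite ends, and 577 of the 1354 peaks of both ends together (42.6%, exact 95% interval 40.0 to 45.3), or 45.9% (43.3 to 48.6) with the ends of IV exchanged. Chromosomes II and III, and IV if its pairing centre is on the right as assigned, had the sparser end on the side of the pairing centre, while on V and X the difference was within counting error. Intervals cover counting error only and treat peaks as independent.

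On II the pairing-centre end held 87 peaks and the opposite end 160, so that its share of the pair was 35.2% (29.3 to 41.5). On III the counts were 117 and 207 (36.1%, 30.9 to 41.6). On IV they were 86 and 131 (39.6%, 33.1 to 46.5). These 3 intervals lie below an equal split between windows of equal length, but they treat neighbouring peaks as independent sites. On V the order was the other way, with 97 and 82 peaks (54.2%, 46.6 to 61.6). X was dense at both ends, with 190 and 197 peaks (49.1%, 44.0 to 54.2). Over the 5 chromosomes the log2 ratio of density, pairing-centre end to opposite end, averaged -0.42 ± 0.50 (SD, n = 5 chromosomes) and was negative on 4 of 5. With the ends of IV exchanged it was -0.18 and negative on 3 of 5 (exact sign-flip p = 0.5). With peaks under 1 kb apart merged it was -0.36 and negative on 3 of 5 (exact sign-flip p = 0.25). The difference as assigned missed the threshold (exact two-sided sign-flip test over chromosomes, p = 0.188; adjusted p = 0.75 over the 4 planned tests). Chromosomes are the units of this test, and 5 of them cannot give a p below 0.0625.

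**Figure D1:**
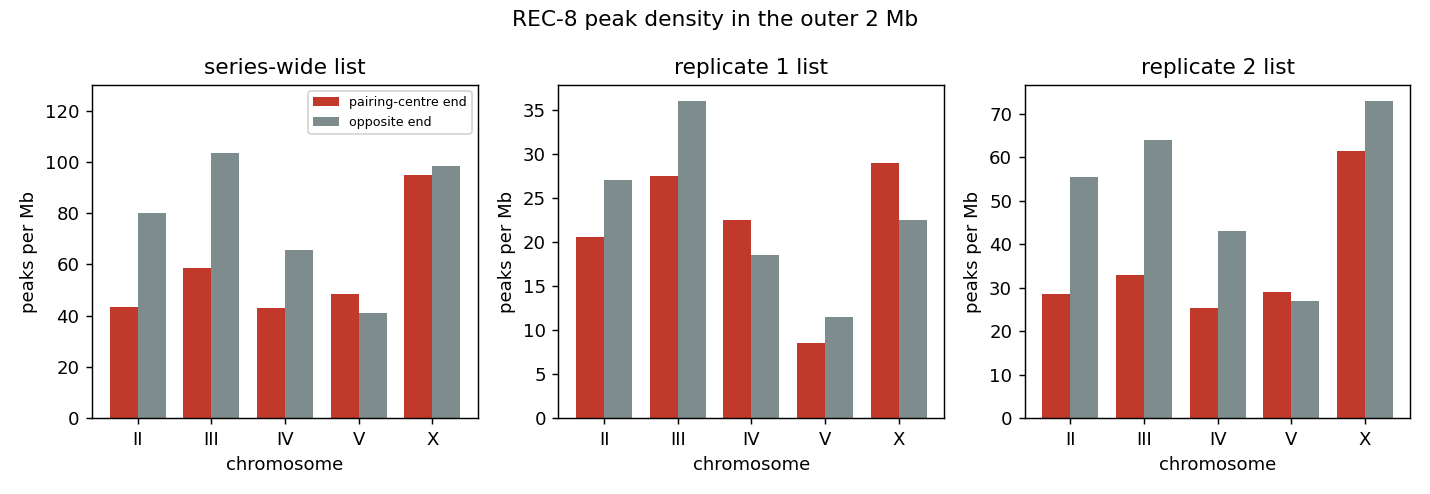
REC-8 peaks per Mb (vertical axis) in the outer 2 Mb of the pairing-centre end (red) and of the opposite end (grey) of each chromosome, in the 3 deposited lists. II and III have the lower red bar in every list, while IV, V and X change order between replicate 1 and the other lists.

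The replicate lists shared the direction on II and III and not elsewhere. On II, replicate 1 had 41 peaks against 54 (log2 ratio -0.40) and replicate 2 had 57 against 111 (-0.96). On III they had 55 against 72 (-0.39) and 66 against 128 (-0.96). The exact intervals of the replicate 1 shares, 33.0 to 53.7% on II and 34.5 to 52.4% on III, include equal density. Those of replicate 2, 26.8 to 41.6% and 27.4 to 41.1%, do not.

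On IV the replicates differed in order. Replicate 1 had 45 peaks at the pairing-centre end and 37 at the other (log2 ratio 0.28), replicate 2 had 51 and 86 (-0.76). X likewise had 58 against 45 in replicate 1 (0.37) and 123 against 146 in replicate 2 (-0.25). On V replicate 1 listed only 17 peaks against 23 (-0.44), and replicate 2 had 58 against 54 (0.10). The mean log2 ratio was -0.12 ± 0.40 in replicate 1 and -0.56 ± 0.47 in replicate 2 (SD, n = 5 chromosomes; exact sign-flip p = 0.438 and 0.125). The number of reads behind these counts is unknown, and the shorter replicate 1 list cannot show absence.

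In the series-wide list the pairing-centre ends of III and IV were sparser than the section next to them. On III density was 58.5 peaks per Mb in the outer 2 Mb and 94.0 in the next 2 Mb (2 to 4 Mb from the end), and on IV it was 42.9 and 58.0. Replicate 2 had the same order on both, while replicate 1 had it on IV and the reverse on III, with 27.5 and then 23.0. On II the low density went on inwards, with 43.5 and then 38.5 peaks per Mb, against 80.0 and 77.5 at the opposite end. V had 48.4 and 36.0, and on X the next 2 Mb held 93.5, about as many as the outer window. The chromosome between both end sections held 73.0 peaks per Mb on II, 105 on III, 72.9 on IV, 53.5 on V and 100.2 on X. Each pairing-centre end was thus below its own chromosome's interior in the series-wide list, by a mean log2 ratio of -0.52 ± 0.37 (SD, n = 5; negative on 5 of 5; exact sign-flip p = 0.0625, the smallest this design allows; adjusted p = 0.0938 over 3 tests added after the values were seen). In replicate 2 the ratio was -0.69 ± 0.43 and negative on 5 of 5. In replicate 1 the mean was 0.09 ± 0.47, positive on 4 of 5, so the replicate 1 list did not share the direction. For series-wide peaks overlapping both replicates the ratio was -0.31 ± 0.51 and negative on 4 of 5 (exact sign-flip p = 0.25). The opposite ends had -0.09 ± 0.19 in the series-wide list, negative on 4 of 5 (exact sign-flip p = 0.312).

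**Figure D2:**
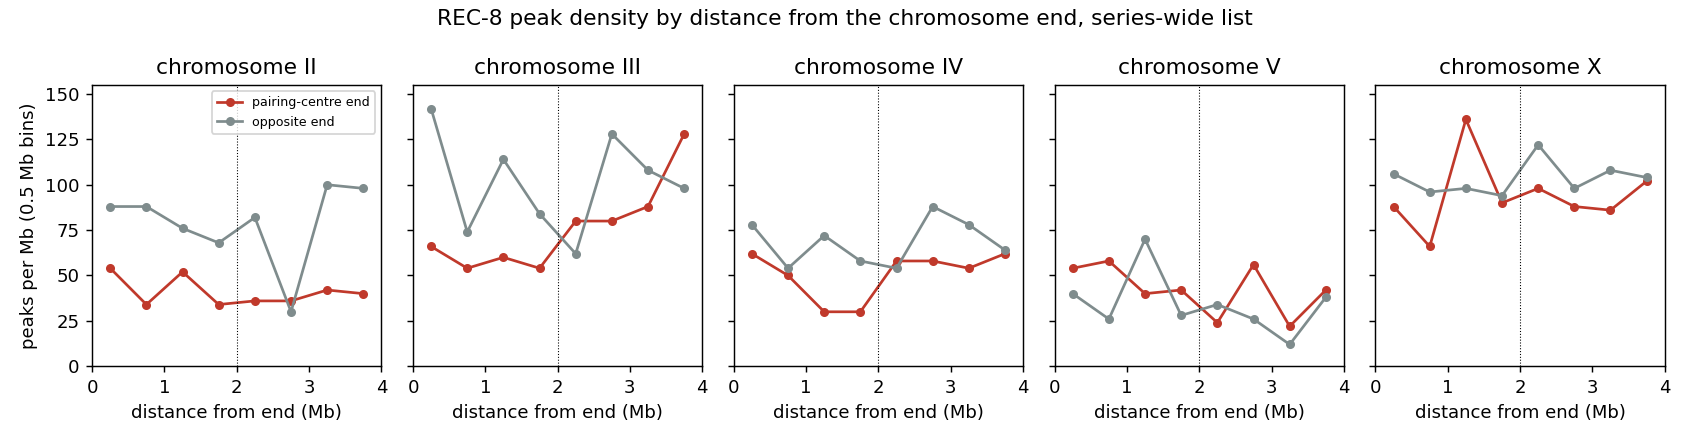
Series-wide peaks per Mb in bins of 0.5 Mb (vertical axis) by distance from the pairing-centre end (red) and the opposite end (grey); the dotted line marks 2 Mb. On II the red line stays at or below 54.0 peaks per Mb throughout, and on X it reaches 136 between 1 and 1.5 Mb.

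Within X the members were not spread evenly. The bin from 1 to 1.5 Mb held 68 peaks, against 44, 33 and 45 in the other bins of that end. With 68 of the 190 X members, it held 20 of the 44 found in both replicates, and 17 of the 35 that ranked in the highest score decile. Across the 20 bins at the pairing-centre ends the number of highest-decile peaks ran from 0 to 17 with a median of 3, and across the 20 bins of the opposite ends from 1 to 10 with a median of 4. This bin was singled out after its values were seen, and no test was made.

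The strongest members lay on X too. Of the 10 highest scoring members found in both replicates, 8 were on X, 1 on III and 1 on IV. X held 190 of all 577 members and 44 of the 125 found in both replicates. The score is the authors' caller's own value and its meaning is not stated, so it serves for ranking within a list. The highest member, X:805603-807767, was 2165 bp wide and ranked 1 of the whole series-wide list with a score of 204. It lay 806 kb from the left end. A chain of strong X members followed further in. X:1344019-1346317 (2299 bp, score 175) overlapped 2 peaks in each replicate, and X:1388322-1390979 (2658 bp, score 199) and X:1503036-1505235 (2200 bp, score 167) overlapped 1 in each. Closer to the centre of the chromosome were X:1625994-1628309 (2316 bp, score 189), X:1888231-1889035 (805 bp, score 193) and X:1908628-1910012 (1385 bp, score 182). The outermost of the 8 was X:409640-410603 (964 bp, score 168). All 8 had a score of 3100 in replicate 2. In replicate 1 all but X:1888231-1889035, with 3034, had 3100 as well. Many peaks share that score, so it orders none of them. The opposite end of X held strong peaks as well, led by X:16055166-16057950 (2785 bp, score 186). That peak ranked 8 of the whole series-wide list and had 3100 in both replicates. The opposite end of X had 24 peaks in the highest score decile, against 35 at the pairing-centre end.

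The autosomal ends had narrower leading members. On III it was III:1618729-1619504 (776 bp, score 180), with rank 74 in replicate 1 and 76 in replicate 2. On IV it was IV:15530436-15530910 (475 bp, score 178), with ranks 139 and 102, at 1963 kb from the right end and so close to the inner limit. Those of V and II were weaker, V:19770807-19771182 (376 bp, score 95.6, series-wide rank 117) and II:255106-255560 (455 bp, score 87.2, rank 149). At the opposite ends the leading scores were 128 on II, 117 on III, 120 on IV, 94.7 on V and 186 on X. The pairing-centre end thus held the higher leading score on III and X, the lower on II, and on V both were nearly equal. On IV it held the higher one as assigned and would hold the lower one with the ends exchanged.

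**Figure D3:**
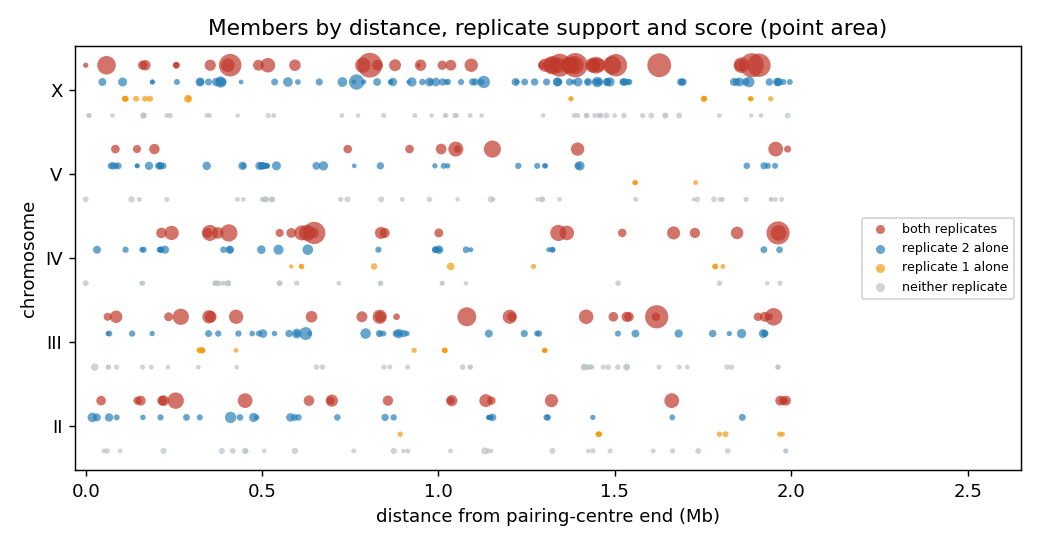
The 577 members by distance from the pairing-centre end in Mb (horizontal axis) and chromosome (vertical axis), coloured by the replicate lists they overlap, with point area growing with the series-wide score. The largest red points lie on X, many of them between 1 and 1.5 Mb.

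In the series-wide list neither mean score percentile nor median width differed between the ends in the same direction on all 5 chromosomes. With 5 chromosomes the sign-flip test cannot decide whether the ends differ, because its smallest possible p, 0.0625, lies above the threshold. The median score of the members was 8.07 (lowest 1.38, highest 204), against 8.86 at the opposite ends and 8.51 over all nuclear peaks. Scores were turned into percentiles within the list. The mean percentile at the pairing-centre end minus that at the opposite end averaged -2.46 ± 5.98 (SD, n = 5 chromosomes; negative on 3 of 5; exact sign-flip p = 0.438; adjusted p = 0.75). V stood lowest, with a mean percentile of 42.8 against 53.6 at its opposite end, and both replicates had the same order there, with 38.5 against 62.8 in replicate 1 and 37.4 against 51.6 in replicate 2. X had 54.4 against 51.4, IV 52.5 against 50.2, III 48.0 against 48.3 and II 49.6 against 56.1.

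Of the members 73 (12.7%) belonged to the highest score decile, against 10.0% of all nuclear peaks by construction and 12.2% at the opposite ends. X gave 35 of the 73, IV 14, III 13, II 7 and V 4. The opposite end held more on II, III and V, with 25, 19 and 14, and fewer on X and IV, with 24 and 13.

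Median width was 300 bp among the members, within a range of 146 to 4600 bp, and 310 bp at the opposite ends. By chromosome it was 296 bp on II against 328 bp at the opposite end, 347 against 308 bp on III, 309 against 298 bp on IV, 245 against 309 bp on V and 318 against 319 bp on X. The log2 ratio averaged -0.05 ± 0.20 (SD, n = 5 chromosomes; negative on 3 of 5; exact sign-flip p = 0.688; adjusted p = 0.75). Peaks of 800 bp or more numbered 48 of the 577 members (8.32%) and 46 of 777 at the opposite ends (5.92%), beside 6.22% of all nuclear peaks. They were 20 on X, 12 on III, 10 on II, 5 on IV and 1 on V. Members covered 2.41% of their windows and opposite-end peaks 3.05% of theirs. In the series-wide list covered bases per Mb were lower at the pairing-centre end on 5 of 5 chromosomes (mean log2 ratio -0.38 ± 0.24, exact sign-flip p = 0.0625), V included, where more but narrower peaks were listed. Replicate 1 did not share this: its peaks covered 1.32% of the pairing-centre ends and 1.30% of the opposite ends, and more at the pairing-centre end on III, IV and X. In the series-wide list 1.635% was covered at the assigned end of IV and 2.312% at its other end, so exchanging the ends would reverse IV. Covered bases were 1 of 12 alternatives of the density result. No other of these reached a sign-flip p of 0.0625, and it was not adjusted.

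**Figure D4:**
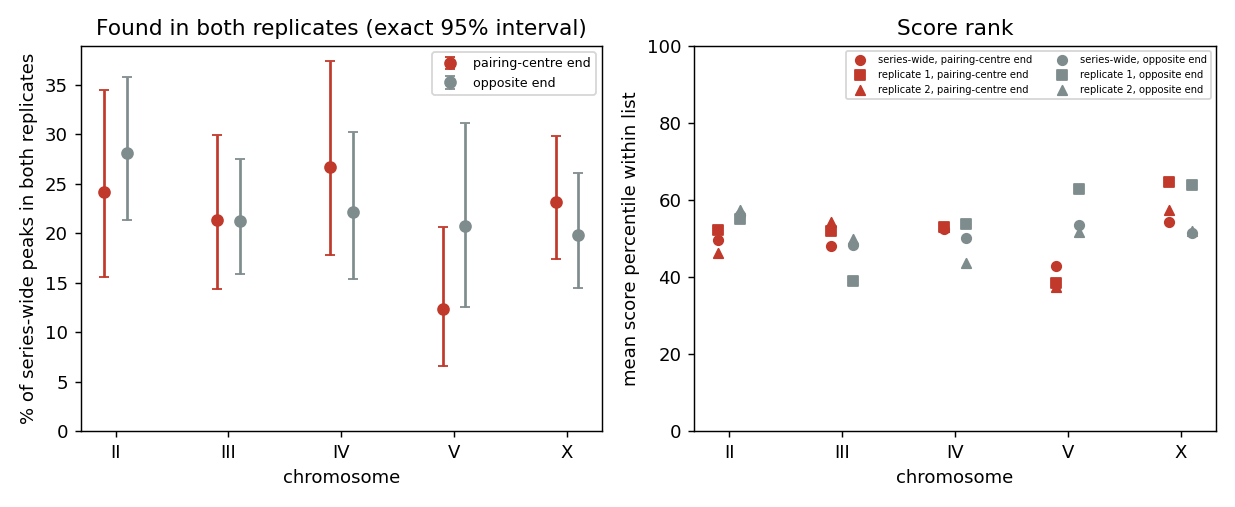
Left, the percent of series-wide peaks that overlap both replicates, with exact 95% intervals; right, the mean score percentile within each list, for the pairing-centre (red) and opposite (grey) end of each chromosome. V has the lowest red value in both panels, 12.4% and 42.8 in the series-wide list, and the intervals of the 2 ends overlap on every chromosome in the left panel.

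Replicate support of the members was next compared. A member was called found in both replicates when it shared at least 1 bp with a peak of each. This held for 125 of 577 members (21.7%, 18.4 to 25.3), beside 19.1% of all nuclear peaks, and for 174 of 777 opposite-end peaks (22.4%, 19.5 to 25.5). The difference between ends averaged -0.85 ± 5.36 percentage points (SD, n = 5 chromosomes; positive on 3 of 5; exact sign-flip p = 0.75; adjusted p = 0.75). The share was 26.7% on IV, 24.1% on II, 23.2% on X, 21.4% on III and 12.4% (6.56 to 20.6) on V. Members found in both scored 41.6 and measured 560 bp at the median. The 222 members (38.5%) that met replicate 2 alone had 10.7 and 306 bp, the 61 (10.6%) that met replicate 1 alone 5.14 and 356 bp, and the 169 (29.3%) that met neither 4.56 and 197 bp.

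The class met by replicate 1 alone was larger than at the opposite ends, where it held 34 of 777 peaks (4.38%, 3.05 to 6.06, against 8.18 to 13.4% for the members). Over all nuclear peaks it was 4.71%. Its share was 10.3% against 1.88% on II, 15.4% against 6.76% on III, 10.5% against 4.58% on IV and 11.1% against 3.05% on X. V had 4.12% against 6.10%. Many members of this class were pieces of a few replicate 1 peaks. The adjoining members from X:109628-110076 to X:113923-114089 all overlapped a peak with a score of 3128. Those from X:1752412-1752566 to X:1754554-1754711 overlapped one with 850. On III, those from III:1017510-1017675 to III:1018648-1020480 overlapped one with 2673, and those from III:1300023-1300195 to III:1302330-1302945 one with 992. The intervals count such pieces as separate sites and so understate the error. The larger shares on III and X hold such pieces, and no share with the pieces joined is given. Seen from the replicate 1 list itself, 131 of its 216 peaks at pairing-centre ends met a replicate 2 peak (60.6%, 53.8 to 67.2), and 186 of 231 at the opposite ends did (80.5%, 74.8 to 85.4). Over the whole replicate 1 list the share was 78.6%. On II this was 25 of 41 against 49 of 54, on III 25 of 55 against 48 of 72, on IV 24 of 45 against 30 of 37, on V 13 of 17 against 18 of 23, and on X 44 of 58 against 41 of 45. The pairing-centre end was lower on 5 of 5 chromosomes, with a mean difference of -19.2 ± 11.3 percentage points (SD, n = 5; exact sign-flip p = 0.0625, the smallest possible; adjusted p = 0.0938 over the 3 added tests), although on V the gap was only that between 76.5% and 78.3%. The mean difference was -8.05 points with the ends of IV exchanged (exact sign-flip p = 0.438) and -9.21 points in the outer 1 Mb. It was -10.6 points with a reciprocal overlap of 50%, -11.2 with peaks under 1 kb apart merged and -12.1 with peaks at or above the median score. Under each of these 5 alternatives the pairing-centre end was lower on 4 of 5 chromosomes. In the same windows replicate 2 peaks covered 2.06% of the pairing-centre ends and 3.00% of the opposite ends; the part of this in the result was not tested.

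In the other direction no such gap was seen over all peaks. Of the replicate 2 peaks at the pairing-centre ends, 129 of 355 met a replicate 1 peak (36.3%, 31.3 to 41.6), against 180 of 525 at the opposite ends (34.3%, 30.2 to 38.5) and 28.0% of the whole replicate 2 list. The mean difference was 2.16 ± 8.43 percentage points (SD, n = 5; positive on 4 of 5; exact sign-flip p = 0.625; adjusted p = 0.625). With peaks at or above the median score it was 8.5 ± 8.3 points and positive on 5 of 5 (exact sign-flip p = 0.0625, not adjusted).

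**Figure D5:**
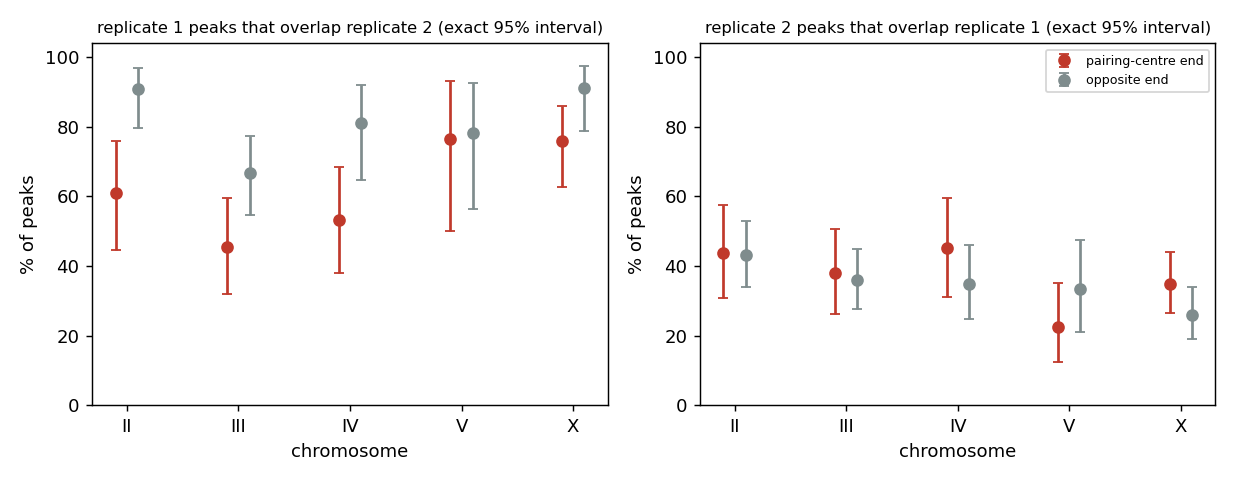
Percent of replicate 1 peaks that overlap a replicate 2 peak (left) and of replicate 2 peaks that overlap a replicate 1 peak (right), by chromosome and end, with exact 95% intervals. In the left panel each red point lies below its grey one, by the most on II (61.0% against 90.7%) and the least on V.

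Part of the replicate 1 peaks without a partner stood in dense runs. The longest was on III from 321768 to 332867, 11100 bp in which 18 replicate 1 peaks followed each other at gaps under 1 kb, with scores from 61.2 to 526. None of the 18 met a replicate 2 peak, while all 18 met a series-wide peak. The series-wide list shows the block as adjoining members of middle to low rank, among them III:324736-329335, the widest of all members with 4600 bp and a score of 8.79, and III:321730-324679 with 2950 bp and 5.61. In the outer 0.5 Mb of this end replicate 1 listed 30 peaks, of which 8 met replicate 2, and in the rest of the window 25, of which 17 did. Over the 5 pairing-centre ends 50 of 216 replicate 1 peaks stood in runs of 3 or more, against 26 of 231 at the opposite ends. The block on III gave 18 of the 50, and the share in runs over the whole replicate 1 list was not computed. In replicate 2 the order was reversed, with 38 of 355 peaks at pairing-centre ends in runs and 68 of 525 at opposite ends. Outside runs 120 of 166 replicate 1 peaks at pairing-centre ends (72.3%) met replicate 2, against 175 of 205 at opposite ends (85.4%). This share was lower on 5 of 5 chromosomes, with a mean difference of -12.9 ± 10.7 points (SD, n = 5, exact sign-flip p = 0.0625, not adjusted). For this subset no value with the ends of IV exchanged was computed.

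The widest members of the other ends had mixed support as well. X:291995-295163 (3169 bp, score 6.33) overlapped 1 peak of replicate 1, with a score of 1139 there, and 0 of replicate 2. II:1150004-1153338 (3335 bp, score 19.7) overlapped 3 peaks of replicate 1 and 2 of replicate 2. IV:17140268-17141522 (1255 bp, score 83.1) overlapped 1 in each and had a score of 3100 in replicate 1 against 1056 in replicate 2. V:19049083-19049889 (807 bp, score 10.2), the only member on V of 800 bp or more, was met by replicate 2 alone.

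At the very tips the lists differed. Each replicate list has a peak that begins at base 1 of every one of the 6 nuclear chromosomes, 210 to 514 bp wide in replicate 1 and 245 to 572 bp in replicate 2. This includes the pairing-centre ends of II, III and X and the opposite ends of IV and V. The series-wide list begins at base 1 only on I and X. On X the peak runs to base 318 (score 5.06), and on II and III the outermost members are II:18815-19169 and III:25618-25851. On the right ends of IV and V the last members, IV:17493465-17493639 (score 7.73) and V:20923850-20923996 (score 7.24), met neither replicate. These 2 peaks set the extents used for their chromosomes.

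Peaks on either side of the 2 Mb limit had the following scores. Just inside it lay II:1985149-1986041 (score 29.5), III:1962559-1962766 (4.37), IV:15524813-15525146 (5.04), V:18934165-18934385 (12.5) and X:1996092-1996288 (7.66). Just outside lay II:2001907-2002467 (43.0), III:2032344-2032598 (5.74), IV:15474257-15474581 (4.37), V:18901611-18901774 (8.07) and X:2002757-2003143 (5.61). Neighbouring members lay closest on X, at a median distance of 4684 bp between midpoints (4575 bp at its opposite end), and farthest apart on II, at 9220 bp against 5304 bp. On III the distance was 6615 bp against 3724 bp, on IV 6743 against 8227 bp and on V 6464 against 6104 bp. The longest stretch without a series-wide peak at a pairing-centre end measured 177450 bp, on IV, and the longest at an opposite end 160833 bp, on V.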

How the data were processed

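Peak lists were the only values used. Per the file headers and source columns, peaks of each ChIP sample were called with MACS and those of the series-wide list with MACS v2, on WormBase WS220; the submitters' processing notes name BWA and ce10. Each peak carries a score as deposited by the authors, whose meaning is not stated. Not given in the sources used here are the use of the input, the handling of reads with several matches, and how the replicates were combined. Depth is unknown.

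Mitochondrial peaks were left out. A chromosome's extent was the last base of any deposited peak, and the opposite window was the outer 2 Mb of the other end. Overlap meant at least 1 bp. Paired differences over the 5 chromosomes were tested with an exact two-sided sign-flip test (threshold 0.05) and Benjamini-Hochberg adjustment, separately over 4 planned tests and 3 added after the values were seen. Shares have exact Clopper-Pearson 95% intervals. The density ratio was tested on simulated lists, and the overlap rule of 1 bp and the sign-flip test by direct checks. Named are the highest, widest, outermost and limit peaks of each pairing-centre end and the highest of each opposite end. The 10 highest members found in both replicates are named too. III:321730-324679 and the members given as pieces of a replicate 1 peak were named after their values were seen. The members and comparisons were chosen with earlier results of these data known. Alternatives were other window lengths, other overlap rules, subsets of peaks, single replicates and other chromosome sets. The tools were pandas 2.3.3, NumPy 2.4.6 and SciPy 1.17.1 under Python 3.11.15, with plots from matplotlib 3.10.9.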

Additional observations from a re-analysis of the deposited data

How the results depend on the processing

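With 5 chromosomes no test could pass 0.05, so that only directions can be compared. The density ratio of the ends kept its negative sign under 12 alternatives, from -0.75 to -0.12 (log2), and was -0.18 with the ends of IV exchanged and -0.38 without IV. It was -0.56 without replicate 1 and -0.12 without replicate 2. The percentile difference turned positive with the outer 1 Mb (1.72) and was 0.007 for peaks overlapping both replicates; it was -1.25 without replicate 1 and -2.89 without replicate 2. The width ratio turned positive with the outer 1 Mb (0.03), with mean width (0.045), for peaks overlapping both replicates (0.049) and without replicate 1 (0.002); without replicate 2 it was -0.025. The difference in the share found in both replicates turned positive for peaks at or above the median score (1.36) and with a reciprocal overlap of 50% (0.14). The added gap of replicate 1 peaks kept its sign under 10 alternatives (-21.4 to -8.05 percentage points). The reverse share turned negative with the outer 1 Mb (-1.07) and with the ends of IV exchanged (-1.93). It was highest with peaks at or above the median score (8.5, positive on 5 of 5 chromosomes). Density against the interior was -0.69 without replicate 1 and reversed to 0.088 without replicate 2. It was -0.31 for peaks overlapping both replicates and -0.39 with the ends of IV exchanged. For each reversal the cause was not tested. No paired analysis was possible because the input samples, which share replicate numbers with the ChIP samples, enter no test; the tests made are paired by chromosome, not by replicate. Unknown depth limits each statement on missing peaks.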

Other observations

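Chromosome I was outside the rule. Its outer 2 Mb held 163 series-wide peaks on the left (81.5 per Mb, 41 of them found in both replicates) and 129 on the right (64.5 per Mb, 33 found in both). Replicate 1 listed 51 and 53 peaks there, and replicate 2 listed 106 and 81. The mean score percentiles of the series-wide peaks were 54.3 on the left and 54.4 on the right. Which of its ends carries the pairing centre was not used here.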
